A study of Mus musculus with 42 samples.

Results

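The interleukin receptor genes are the genes whose mouse symbol begins with Il, a number and the letter r, such as Il1r1 or Il15ra, and the receptor antagonist Il1rn, a ligand, was left out. They were found by symbol alone, without use of any measured value, among the array features that the platform annotation assigns to 1 gene. The rule gave 32 genes of the 15277 genes measured, on 52 array features, and features of 1 gene were averaged. The 32 genes belong to 8 classes: the IL-1 family, the receptors that signal with the common gamma chain, and those for IL-3 and IL-5, IL-12 and IL-23, the gp130 family, the IL-10 family, IL-13 and IL-17. Il2rg, Il1rl1, Il11ra1, Il23r and Il20rb were not analysed here.

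The samples were spleens of female BALB/c mice that were wild type per the labels. An equimolar mixture of CpG ODN 1555 and 1466 was injected into the peritoneum at 400 µg. CpG ODN are short DNA oligodeoxynucleotides with unmethylated CG dinucleotides, which innate immune cells sense through Toll-like receptor Tlr9. Spleens were taken after 3, 9, 24 or 72 h and after 5, 7, 9 or 14 days, with 4 mice at each time. In 1 place the labels write the name of the first CpG oligodeoxynucleotide with its last digit missing. Another 4 mice received 400 µg of a control mixture, ODN 1612 and 1471, for 3 h, and 6 mice were untreated. The labels give no ages and no vehicle injection, and the control mixture was given at 3 h only. The study's design text calls the replicates independent and biological. Spleen cDNA carried Cy5. The reference on every array, labelled with Cy3, was Universal Mouse Reference RNA, a mixture of tissues and cell types that includes lymphocytes and macrophages.

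Interleukin receptors are mostly pairs of membrane proteins: a chain that binds the cytokine and a chain that carries the signal, and many chains serve several cytokines. Receptors of the IL-1 family signal through Myd88, the adaptor also used by Tlr9, whereas most other classes signal through Jak kinases and Stat transcription factors. A few members bind a ligand without passing on a signal and so act as decoys: Il1r2 for IL-1, Il22ra2 for IL-22 and Il13ra2 for IL-13. In the spleen the chains mark distinct cells, such as Il7r on resting T cells, Il2rb on natural killer (NK) cells and memory T cells, and Il1r2 on neutrophils and other myeloid cells.

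Each value given below as a level is a log2 ratio of spleen over reference for 1 gene. Such ratios cannot be ranked between genes, because the amount of each gene in the reference is not known. The base of the logarithm and the direction were read from the values and labels and not from a stated method. Values were present on all 42 arrays for 26 of the 32 genes. Differences between groups were tested with limma over all genes measured, and a gene was called when its p-value, adjusted over all genes tested in that comparison, was below 0.05. In whole spleen a change in the number of cells that carry a transcript and a change in the transcript per cell cannot be told apart, and fewer cells of a type and less RNA per cell look the same.

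Of 30601 features, 173 to 1740 were missing per array, and array pairs correlated at 0.698 to 0.97 over all features. B cell markers gave a mean log2 ratio of 2.66 ± 0.18 (SD, n = 6) over 12 genes in untreated spleens. As a ratio over the reference this level cannot be ranked against other cell types and is no check of the tissue label. Acinar pancreas genes ranged from 0.51 to 5.47 between untreated spleens, and no member of the receptor set is in that list. The part of pancreas tissue in the values of the members was not tested. The labels give each array a database number, and these numbers fall into 10 runs. Untreated spleens lie in other runs than all spleens of the control mixture and of 72 h or later, so for those comparisons run and group cannot be told apart. Spleens of 7 and 9 days, of 72 h and 5 days, and of 9 and 14 days share no run either, so for those steps run and time cannot be told apart. For 3, 9 and 24 h a fit with run as a block was possible, and its values are given for members where they end or add a call. Differences of genes outside the set are given without this block and without leaving out single spleens, so how far they hold is not shown. Only untreated replicate 2 shares a run with 3 h spleens, and no untreated spleen shares a run with 9 or 24 h spleens. The blocked differences from untreated spleens therefore rest on a single untreated spleen and are less precise. Whether run or this lower precision ended a call cannot be told apart. Of the 11 calls against untreated spleens at these times it kept 2 at 3 h, 2 at 9 h and none of the 4 at 24 h, and it added Il17rc at 3 and 24 h.

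**Figure D1:**
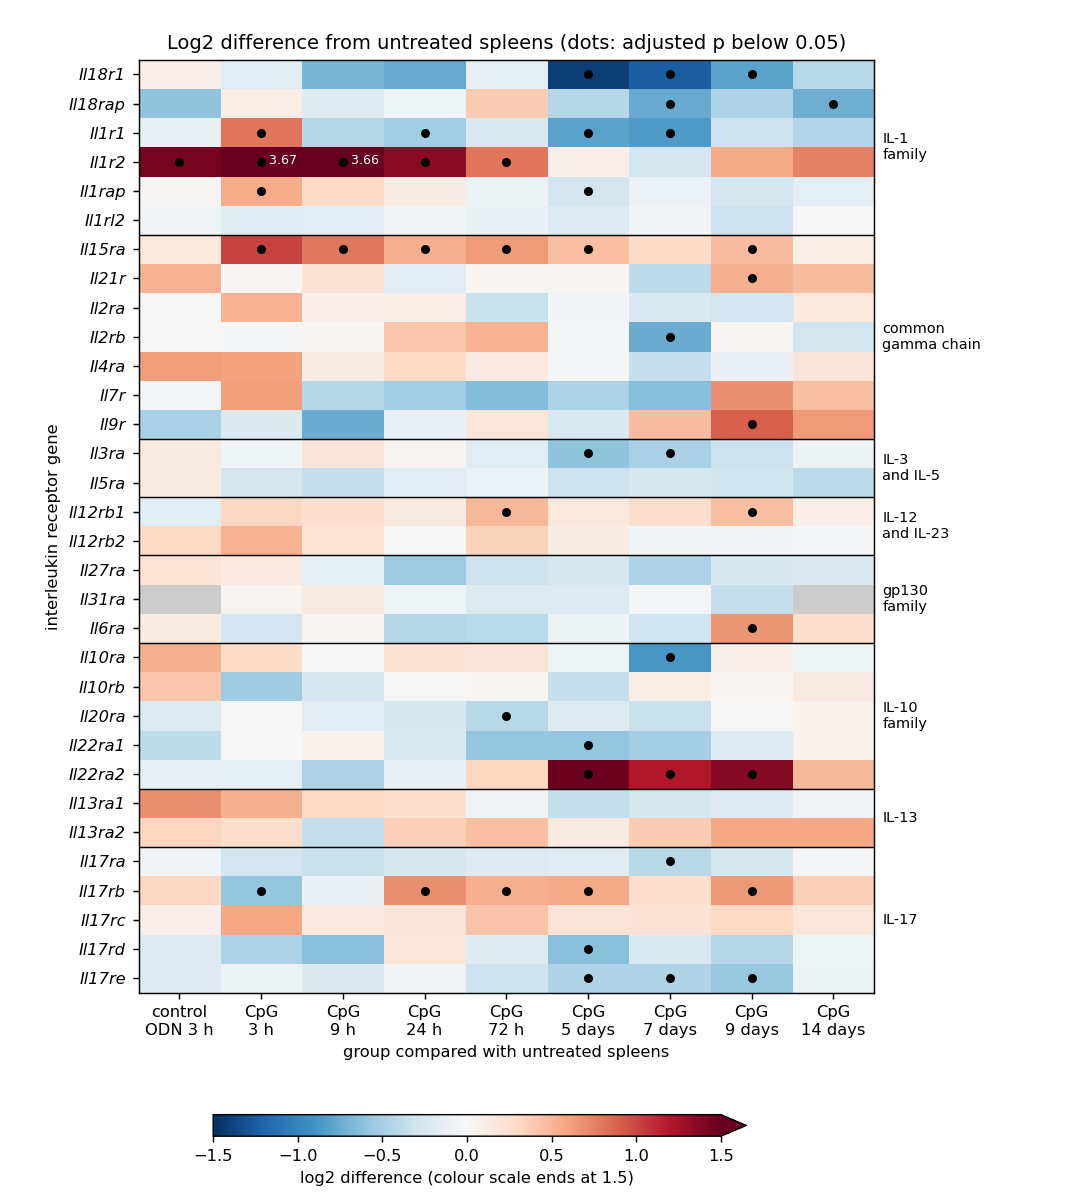
Log2 differences from untreated spleens for the 32 interleukin receptor genes (rows, by class) in each CpG group and in the control group (columns), with the colour scale ending at 1.5, grey for not tested and a dot where the adjusted p was below 0.05. Calls of higher members at 3 and 9 h lie in the IL-1 family and Il15ra and at 9 days in 5 classes outside the IL-1 family, and calls of lower members lie mainly at 5 and 7 days.

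Of the 32 genes, 20 were called against untreated spleens at 1 or more CpG times, in 45 calls in all, and 12 were called at none. This is 62.5% of the members, against 52.5% of all genes. At 3 h 5 of 32 were called, with 4 higher and 1 lower, which is 15.6% of the members against 11.6% of all genes tested (7.7% higher and 3.93% lower). At 9 h 2 of 32 were called, both higher, against 8.52% of all genes (5.07% higher and 3.45% lower). At 24 h 4 of 32 were called, with 3 higher and 1 lower, against 10.9% of all genes (8.03% higher and 2.87% lower). At 72 h 5 of 32 were called, with 4 higher and 1 lower, against 15% of all genes (8.94% higher and 6.01% lower). The shares at these 4 times were near the background, and so the early response is described by single genes and not by the set.

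After 72 h the balance of calls was different. At 5 days 10 of 32 were called, with 3 higher and 7 lower, against 30.9% of all genes (17.5% higher and 13.4% lower). At 7 days 9 of 32 were called, with 1 higher and 8 lower, against 15.6% of all genes (8.68% higher and 6.89% lower). At 9 days 9 of 32 were called, now with 7 higher and 2 lower, against 13.5% of all genes (8.4% higher and 5.12% lower). At 14 days 1 of 31 was called, and it was lower, against 4.54% of all genes, of which 1.77% were lower. The median difference of the members was -0.20 at 5 days and -0.27 at 7 days, where the medians of all genes were 0.01 and -0.02, and at the other CpG times the members' median lay between -0.07 and 0.06. The CpG spleens and the untreated spleens did not overlap for 7 members at 3 h, 5 at 9 h, 3 at 24 h and 3 at 72 h, where 13.3%, 8.76%, 7.99% and 11.6% of all genes did not overlap. The same held for 7 members at 5 days, 12 at 7 days, 5 at 9 days and 2 at 14 days, against 22.6%, 16%, 13.2% and 7.68% of all genes, and for 2 members after the control mixture, against 3.88%. An F test over the 8 CpG times called 22 of 31 members, or 71%, against 63.5% of all genes tested.

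The IL-1 family gave the largest early change of any member. Il1r2 is the decoy receptor for IL-1, and it was 12.7-fold higher 3 h after CpG. Its promoter is shown because it is the member with the largest difference, and the capitals mark a match to TTCNNNGAA, the palindrome bound by Stat dimers (a GAS element), at -111 to -103 from the start site. The 250 bases before the start lie at chr1:40085843-40086092 on the plus strand of GRCm38.p6, from RefSeq.
Il1r2: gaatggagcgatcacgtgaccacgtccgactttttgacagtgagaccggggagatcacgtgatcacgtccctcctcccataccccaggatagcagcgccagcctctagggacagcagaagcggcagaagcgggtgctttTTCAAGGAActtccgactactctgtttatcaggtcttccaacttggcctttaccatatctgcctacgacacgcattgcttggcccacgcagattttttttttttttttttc
TTCNNNGAA, searched on both strands, was present in 8.3% of the 32851 RefSeq promoters searched. Each searched promoter has 300 bases and runs past the start site, so it is longer than the stretch shown. A match is a description of the letters and not a binding site.

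In untreated spleens the Il1r2 log2 ratio ranged from 0.77 to 1.77 with a median of 1.41. The 4 spleens at 3 h gave 4.91, 4.21, 5.60 and 5.25, and the 4 at 9 h gave 4.85, 4.45, 5.47 and 5.19. Every spleen at 3 and 9 h lay more than 2 log2 units above the highest untreated spleen. The difference was 3.67 ± 0.27 (SE; adjusted p = 6.91e-14) at 3 h and 3.66 ± 0.27 (adjusted p = 1.6e-13) at 9 h. With run as a block it was 3.86 at 3 h and 4.29 at 9 h, both still called. At 24 h the spleens gave 2.32, 2.59, 2.76 and 3.06, still above all untreated ones, and the difference was 1.35 (adjusted p = 0.000487), or 2.56-fold. In the fit with run as a block the 24 h difference was 2.10 with adjusted p = 0.0938. The fall from 9 h to 24 h was -2.31 (adjusted p = 1.43e-06), in a comparison that called 9.7% of all genes.

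By 72 h Il1r2 overlapped the untreated spleens at 2.45, 1.75, 2.07 and 2.22, and its difference of 0.80 (adjusted p = 0.0373) did not hold up. It was lost without untreated replicate 4, 5 or 6 or without the 72 h replicate 1, 3 or 4, with differences of 0.69 to 0.81 and adjusted p of 0.0551 to 0.122. It was also lost with run as a random block (adjusted p = 0.0531). At 5, 7, 9 and 14 days Il1r2 was not called against untreated spleens.

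The transcript of Il1r2 also moved after the control mixture, and it was the only member called there (1 of 31, against 3.52% of all genes, 2.45% higher and 1.07% lower). The 4 spleens gave 3.33, 2.89, 3.01 and 1.80, all just above or well above the highest untreated spleen at 1.77. The difference was 1.43 ± 0.27 (adjusted p = 0.00724), or 2.7-fold. It missed the threshold without control replicate 1 (1.24, adjusted p = 0.0583) or 3 (1.35, adjusted p = 0.0657), and in a fit of these 2 groups alone (adjusted p = 0.0856). CpG at 3 h stood 2.24 ± 0.29 above the control mixture (adjusted p = 2.62e-07), or 4.71-fold, with no overlap.

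Neutrophil markers moved in the same groups. Their mean log2 ratio over 11 genes ranged from 1.86 to 2.61 in untreated spleens, 2.73 to 3.14 at 3 h, 2.92 to 3.50 at 9 h and 2.44 to 3.80 after the control mixture. Of 14 neutrophil genes 5 were higher at 3 h, 5 at 9 h and 3 after the control mixture, with none lower. Of all genes 7.7%, 5.07% and 2.45% were higher in these comparisons. Without control replicate 1 no gene was called after the control mixture. At 9 days the same list ranged from 4.01 to 4.43, above its range at 3 h, while Il1r2 at 9 days was 1.98, 2.23, 2.14 and 1.23. The part of neutrophils in the Il1r2 result was not tested.

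**Figure D2:**
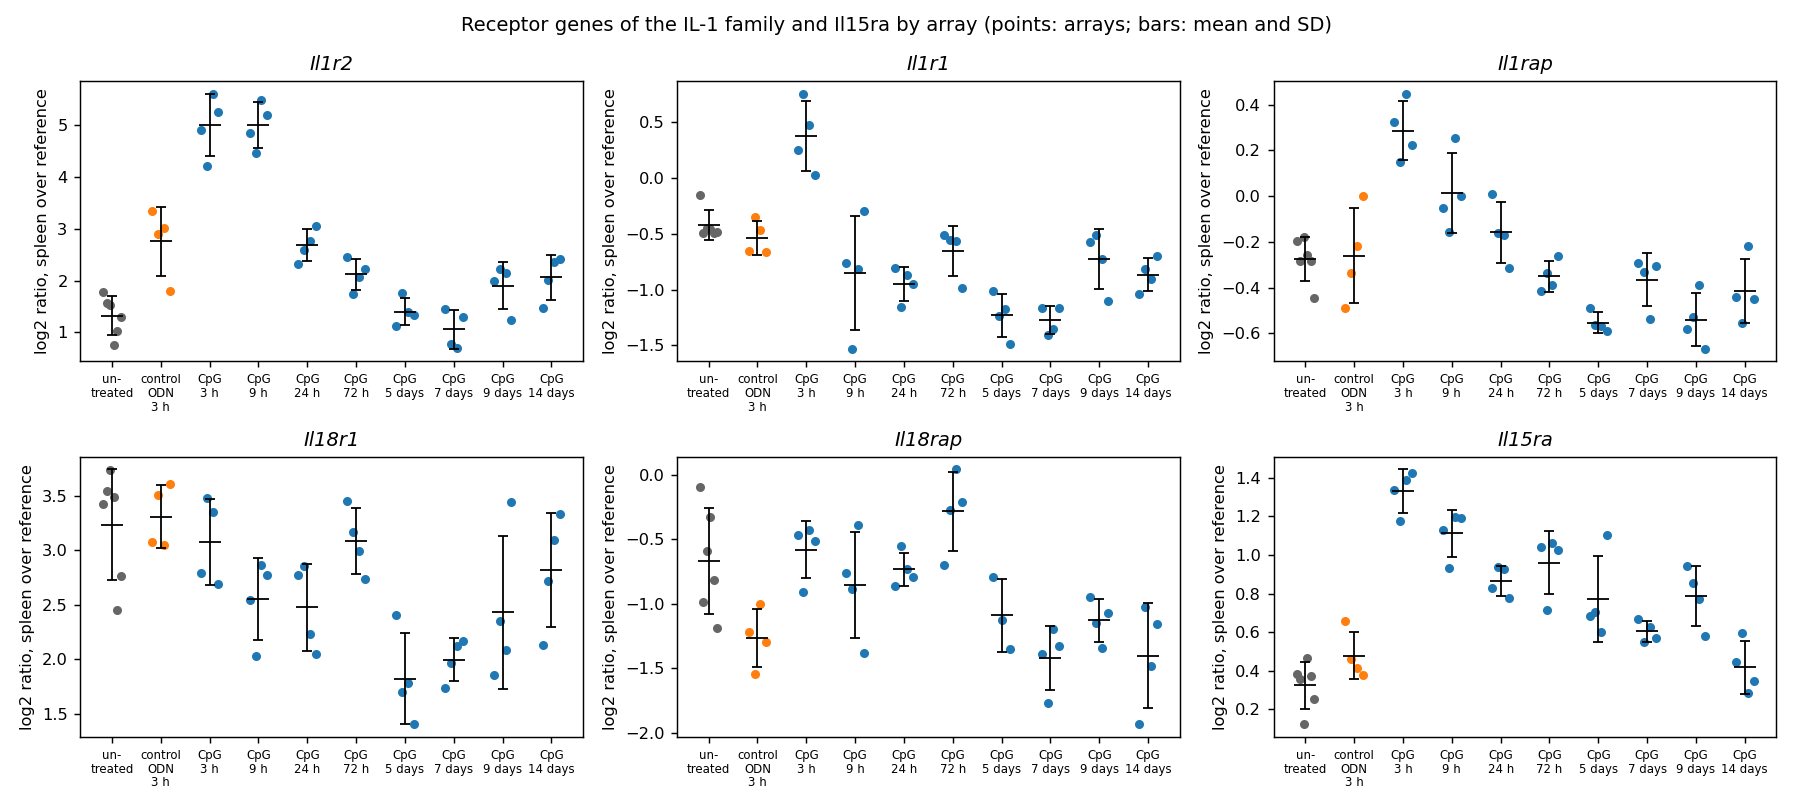
Log2 ratio of spleen over reference for Il1r2, Il1r1, Il1rap, Il18r1, Il18rap and Il15ra in every spleen (points) with the group mean and SD (bars), for untreated, control and CpG groups in order of time. Il1r2 lies above all untreated spleens at 3, 9 and 24 h, Il15ra at every CpG time but 14 days, and Il1r1 only at 3 h. Il18r1 lies below all untreated spleens at 5 and 7 days.

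Il1r1, the receptor chain that signals for IL-1, rose briefly and then fell. Untreated spleens ranged from -0.50 to -0.16 with a median of -0.47. The spleens at 3 h gave 0.25, 0.75, 0.47 and 0.02, all higher, and the difference was 0.80 ± 0.16 (adjusted p = 0.000277), or 1.74-fold. At 9 h they gave -0.76, -1.53, -0.82 and -0.30, and the step from 3 to 9 h was -1.22 (adjusted p = 2.65e-05), the single member called in a comparison that called 1.44% of all genes. The 3 and 9 h spleens of Il1r1 did not overlap, as for 7.42% of all genes. With run as a block this step was -1.35 (adjusted p = 0.00075), whereas the rise at 3 h was 0.74 with adjusted p = 0.236. In a fit of the 3 and 9 h arrays alone the step had adjusted p = 0.0543.

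Il1r1 was below all untreated spleens at 5 days, with -1.02, -1.24, -1.18 and -1.49, and at 7 days, with -1.17, -1.41, -1.35 and -1.17. The differences were -0.81 ± 0.16 (adjusted p = 0.000174) and -0.85 ± 0.16 (adjusted p = 0.0003). A lower value at 24 h, by -0.52 (adjusted p = 0.0256), was lost without untreated replicate 1 or the 24 h replicate 2 or 3, with differences of -0.55 to -0.45 and adjusted p of 0.055 to 0.105. With run as a block the 24 h difference of Il1r1 was -0.745 and was not called. Untreated replicate 1, at -0.16, stood apart from the other 5 untreated spleens.

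Il1rap, the accessory chain that completes the IL-1 and IL-33 receptors, rose with Il1r1 at 3 h. Untreated spleens ranged from -0.45 to -0.18 with a median of -0.27. The 3 h spleens gave 0.32, 0.15, 0.45 and 0.22, all above them, and the difference was 0.56 ± 0.10 (adjusted p = 6.62e-05), or 1.47-fold. A run block left 0.62 with adjusted p = 0.0971. Its 6 features did not move alike, with differences from 0.06 to 1.09, and 4 of them passed when features were tested singly. A lower level at 5 days (-0.28, adjusted p = 0.0317) was lost without untreated replicate 1 or 3 or the 5 day replicate 2, 3 or 4, with differences of -0.28 to -0.26 and adjusted p of 0.0559 to 0.0726. The Il1rap promoter, chr16:26581455-26581704 on the plus strand, is shown because the gene rose at 3 h and carries a match to the kappaB element of NF-kappaB (GGGA, then any 4 bases, then CC), in capitals at -119 to -110.
Il1rap: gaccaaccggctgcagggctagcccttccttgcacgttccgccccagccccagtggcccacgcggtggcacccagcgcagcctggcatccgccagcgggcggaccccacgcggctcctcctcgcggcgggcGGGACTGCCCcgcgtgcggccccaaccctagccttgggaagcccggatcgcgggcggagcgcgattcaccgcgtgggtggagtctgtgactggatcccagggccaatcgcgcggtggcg
On both strands this element was found in 20.73% of all promoters searched and in 8 of the 29 member promoters (27.59%).

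The IL-18 receptor chains fell late. Il18r1, which binds IL-18, had untreated levels of 2.45 to 3.74 with a median of 3.46. The 5 day spleens gave 2.40, 1.70, 1.78 and 1.40 and the 7 day spleens 1.73, 1.96, 2.12 and 2.17, below every untreated spleen. The differences were -1.41 ± 0.27 (adjusted p = 0.000122) at 5 days and -1.24 ± 0.27 (adjusted p = 0.00119) at 7 days, or 2.66-fold and 2.36-fold lower. At 9 days the spleens gave 1.86, 2.35, 2.08 and 3.44, and the difference of -0.80 (adjusted p = 0.0394) was lost without untreated replicate 1, 2, 3 or 4 or the 9 day replicate 1, 2 or 3, with differences of -0.78 to -0.61 and adjusted p of 0.0701 to 0.166.

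Il18rap is the signalling partner of Il18r1. Its untreated levels ranged from -1.19 to -0.10 with a median of -0.70. The 7 day spleens gave -1.39, -1.77, -1.19 and -1.33, below the untreated spleens, with a difference of -0.76 ± 0.19 (adjusted p = 0.00576). At 14 days the difference was -0.74 (adjusted p = 0.0224), with -1.94, -1.03, -1.49 and -1.16. This call, the only one of that time, was lost without untreated replicate 1 or the 14 day replicate 1 or 3, with differences of -0.71 to -0.56 and adjusted p of 0.0697 to 0.0942. Between 72 h and 5 days both chains fell, Il18r1 by -1.27 (adjusted p = 0.0126) and Il18rap by -0.81 (adjusted p = 0.0421), in a comparison that called 3.42% of all genes and 3 of 32 members. One of the 5 day values of Il18rap was missing. The Il18r1 step was lost without the 5 day replicate 4 (-1.13, adjusted p = 0.0554). The Il18rap step was lost without the 72 h replicate 2, 3 or 4, with differences of -0.80 to -0.70 and adjusted p of 0.0691 to 0.122. The 5 day replicate 4 held the missing value. Without that array the Il18rap difference stayed at -0.81 but had adjusted p = 0.0602. Without any other 5 day replicate the Il18rap step could not be tested, because fewer than 3 values remained.

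Il1rl2, the IL-36 receptor, was called at no time, with differences of -0.32 to -0.01. In the RefSeq annotation of GRCm38.p6 Il1r2, Il1r1, Il1rl2, Il18r1 and Il18rap follow each other on chromosome 1, with Il1rl1 as the only protein-coding gene between them. These neighbours were first called at different times: Il1r2 and Il1r1 at 3 h, Il18r1 at 5 days, Il18rap at 7 days and Il1rl2 at none.

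The ligands of this family were higher at the early times. At 3 h Il18 was higher by 1.54 ± 0.21 (adjusted p = 7.73e-07), Il1a by 1.45 ± 0.27 (adjusted p = 0.000102) and Il1b by 1.15 ± 0.35 (adjusted p = 0.022). Il1rn, the antagonist that competes for Il1r1, was higher by 1.61 ± 0.13 (adjusted p = 2.2e-12). At 24 h Il18 was still higher by 1.65 (adjusted p = 4.59e-07), and Il1b was lower at 7 days by -1.38 (adjusted p = 0.00498). Il18bp, the soluble protein that binds IL-18, was higher at 5 days by 0.93 (adjusted p = 8.51e-05).

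Among the 7 receptors of the common gamma class, Il15ra was the one with the longest lasting change. Il15ra binds IL-15 with high affinity and presents it to neighbouring cells. The untreated level ranged from 0.12 to 0.47 with a median of 0.36, and the 3 h spleens gave 1.34, 1.17, 1.39 and 1.43. None overlapped, and the difference was 1.01 ± 0.10 (adjusted p = 8.72e-10), or 2.01-fold. It was also called at 9 h (0.79, adjusted p = 3.43e-07), at 24 h (0.54, adjusted p = 0.000347), at 72 h (0.64, adjusted p = 5.35e-05), at 5 days (0.45, adjusted p = 0.00103) and at 9 days (0.46, adjusted p = 0.00224). At 7 and 14 days it was not called. The 7 day spleens, at 0.55 to 0.67, still lay above all untreated ones, and 16% of all genes did not overlap at that time. All 6 calls were kept when any single spleen of the compared groups was left out.

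With run as a block, the Il15ra difference was 1.05 (adjusted p = 0.000442) at 3 h, 0.91 (adjusted p = 0.0403) at 9 h and 0.68 (adjusted p = 0.211) at 24 h. The control mixture gave 0.66, 0.46, 0.41 and 0.38, which overlapped untreated spleens, and CpG at 3 h was higher than the control mixture by 0.86 ± 0.11 (adjusted p = 3.89e-07), with no overlap. Il15, its ligand, was higher at 3 h by 1.96 ± 0.17 (adjusted p = 1.08e-11).

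The 6 features of Il15ra gave different sizes. At 3 h they differed from untreated spleens by 2.12, 2.24, 0.56, 0.90, 0.28 and 0.08, and 3 of the 6 passed when features were tested singly. At 72 h they gave 1.52, 1.62, 0.61, 0.37, 0.22 and -0.05. The averaged value is therefore smaller than that of the features that moved most, and with the median over features the 9 day difference was 0.36 with adjusted p = 0.189.

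**Figure D3:**
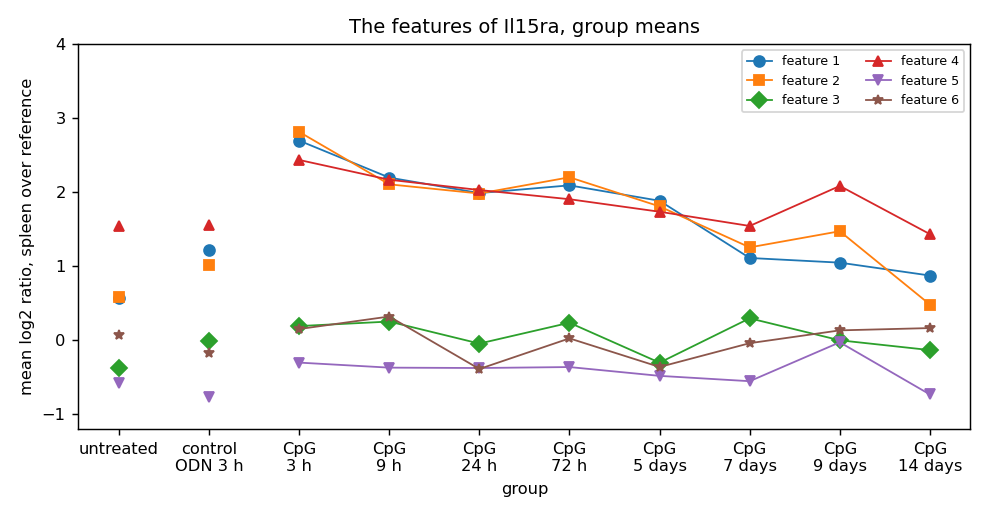
Group mean of the log2 ratio of spleen over reference (y axis) for each of the 6 Il15ra features (colours and symbols) in untreated, control and CpG groups (x axis), with lines joining the CpG times. Features 1 and 2 both start at 0.58 in untreated spleens and stand at 2.70 and 2.81 at 3 h, while feature 6 goes from 0.08 to 0.15.

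RefSeq lists more than 1 start for Il15ra, and short stretches of 2 of its promoters are shown because the gene changed at the most times. The first lies at chr2:11705133-11705162 and the second at chr2:11705731-11705760, both on the plus strand of GRCm38.p6. Capitals mark GAAANNGAA or its reverse complement, a shorter form of the interferon-stimulated response element. The first match lies at -149 to -141 from its start site. The second lies at 31 to 39 after its start site, and the whole second stretch lies after that site.
Il15ra first start: ttcaccccttcTTCCATTTCaaacacttgg
Il15ra second start: aaagcaaaagcGAAAGCGAAtactccttag
This shorter motif was chosen after the sequences were seen, and it is part of the full element, which ends in a further A. On both strands it occurred in 8.56% of all promoters and 3 of the 29 member promoters (10.34%), and the full element occurred in 3.44% of all promoters and in 1 member promoter, that of Il1rap. The Il1rap match lies at 21 to 30 after the start, outside the bases shown for that gene. TTCNNNGAA occurred in 5 member promoters (17.24%). A promoter entry was used for 25 of the 32 genes.

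The other 6 receptors of this class showed few calls against untreated spleens. Il2ra, the alpha chain of the IL-2 receptor and the neighbour of Il15ra on chromosome 2, was 0.53 higher at 3 h with adjusted p = 0.0589. Its spleens gave 1.31, 0.94, 1.36 and 1.35 against 0.20 to 1.19 (median 0.76) in untreated ones, which overlap, and its features gave 0.96 (adjusted p = 0.00147) and 0.09 (adjusted p = 0.895). Il4ra, the IL-4 receptor chain, gave 1.35, 1.10, 1.34 and 1.35 at 3 h against 0.49 to 1.05 (median 0.64), with no overlap, but its difference of 0.60 had adjusted p = 0.0928. After the control mixture Il4ra ranged from 0.51 to 2.34, the widest spread of that gene in any group.

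Il2rb carries the signal of IL-2 and IL-15. Its untreated levels ranged from 2.14 to 3.16 with a median of 2.52. The 7 day spleens gave 1.83, 1.74, 2.18 and 1.64, and 1 of them reached the untreated range. The difference of -0.75 (adjusted p = 0.0278) was lost without untreated replicate 1 or 2 or the 7 day replicate 1, 2 or 4, with differences of -0.74 to -0.63 and adjusted p of 0.0512 to 0.094. NK cell markers ranged from 1.95 to 2.93 in untreated spleens and 2.20 to 2.40 at 7 days, and 2 of 12 were lower, against 6.89% of all genes. Their part was not tested.

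Il7r, which keeps resting lymphocytes alive on IL-7, was called at no CpG time against untreated spleens, although its differences ran from -0.65 at 72 h to 0.69 at 9 days. It did change between late times. The 7 day spleens gave 2.74, 2.87, 2.89 and 2.94 and the 9 day spleens 4.37, 4.16, 4.17 and 4.08, without overlap, and the step was 1.33 ± 0.31 (adjusted p = 0.0118), or 2.52-fold. Its 2 features gave 1.89 (adjusted p = 0.0138) and 0.78 (adjusted p = 0.0631) for this step. As for the other members that changed from 7 to 9 days, run and time cannot be told apart for this step. T cell markers, 17 genes, ranged from 1.21 to 1.74 in untreated spleens, 0.89 to 1.00 at 7 days, 0.98 to 1.29 at 9 days and 1.29 to 1.75 at 14 days, and their part in the Il7r values was not tested. The ligand Il7 was lower at 3 h by -0.79 ± 0.18 (adjusted p = 0.00188).

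Il21r, the IL-21 receptor, also rose between 7 and 9 days. The 7 day spleens gave 0.29, 0.63, 0.65 and 0.57, and the 9 day spleens 1.47, 1.61, 1.01 and 1.76, with a step of 0.93 ± 0.18 (adjusted p = 0.00301). Its 2 features did not move alike. One had means of 0.614 at 7 days and 0.932 at 9 days, the latter below its untreated mean of 1.075. The other went from 0.457 to 1.995, above its untreated mean of 0.86. Against untreated levels of 0.62 to 1.12 (median 0.95) the 9 day difference of 0.53 (adjusted p = 0.0277) was lost without untreated replicate 3 or 5 or the 9 day replicate 1, 2 or 4, with differences of 0.44 to 0.53 and adjusted p of 0.0504 to 0.137. Il21r was also lower 3 h after CpG than after the control mixture, by -0.50 (adjusted p = 0.045), and this was lost without the CpG replicate 2, 3 or 4 or the control replicate 1, 2 or 3, with differences of -0.51 to -0.42 and adjusted p of 0.0823 to 0.144. The 2 Il21r features had means of 1.046 and 0.848 at 3 h after CpG, close to their untreated means of 1.075 and 0.86. After the control mixture they were 1.423 and 1.48. Il9r, the IL-9 receptor, gave 1.61, 2.13, 1.40 and 2.17 at 9 days against 0.59 to 1.48 (median 0.84), a difference of 0.90 (adjusted p = 0.0256). That call was lost without untreated replicate 5 or 6 or the 9 day replicate 2 or 4, with differences of 0.79 to 0.85 and adjusted p of 0.0523 to 0.11.

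Of the receptors for IL-3 and IL-5, Il3ra fell at 5 and 7 days and Il5ra did not pass at any time. Il3ra binds IL-3 and is found on basophils. Untreated levels ranged from 0.66 to 1.15 with a median of 0.73, and the 5 day spleens gave 0.42, 0.13, 0.23 and 0.09, all lower. The difference was -0.61 ± 0.15 (adjusted p = 0.00204), or 1.52-fold lower. At 7 days the spleens gave 0.42, 0.29, 0.28 and 0.34, and the difference of -0.49 (adjusted p = 0.0206) was lost without untreated replicate 2 or the 7 day replicate 2 or 3, with differences of -0.48 to -0.43 and adjusted p of 0.053 to 0.0604. Il5ra, a marker of eosinophils and B-1 cells, was between -0.40 and -0.09 from untreated spleens with a lowest adjusted p of 0.323; its spleens ranged from 0.89 to 1.86 untreated (median 1.58) and were 1.06, 0.86, 1.29 and 1.73 at 3 h.

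Of the 2 chains of the IL-12 receptor, Il12rb1 was called at 72 h and 9 days and Il12rb2 at no time. Il12rb1, shared with the IL-23 receptor, had untreated levels of -0.10 to 0.03 with a median of 0.01. The 72 h spleens gave 0.60, 0.56, 0.46 and 0.38, above all of them, and the difference was 0.50 ± 0.15 (adjusted p = 0.0174), or 1.42-fold. It was lost without the 72 h replicate 1 or 2, with differences of 0.47 and 0.48 and adjusted p of 0.0554 and 0.0559. The 2 features gave 0.80 (adjusted p = 0.00378) and 0.21 (adjusted p = 0.615).

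At 9 days Il12rb1 gave 0.08, 0.47, 0.60 and 0.67 with a difference of 0.46 (adjusted p = 0.0318), lost without untreated replicate 3 or the 9 day replicate 2, 3 or 4, with differences of 0.38 to 0.45 and adjusted p of 0.0574 to 0.137. Il12rb2, the signalling chain, gave 1.05, 0.95, 1.59 and 1.54 at 3 h against 0.52 to 1.26 (median 0.67) untreated, which overlap, and its difference of 0.52 had adjusted p = 0.0514. Il12b, which encodes the subunit that IL-12 shares with IL-23, was higher at 3 h by 3.67 ± 0.18 (adjusted p = 1.92e-16).

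In the gp130 class Il6ra was called at 9 days. Il6ra binds IL-6, and its untreated levels ranged from -0.28 to 0.44 with a median of -0.14. The 7 day spleens gave -0.42, -0.31, -0.32 and -0.28, and the 9 day spleens gave 0.69, 0.74, 0.23 and 0.85. The 9 day difference from untreated spleens was 0.66 ± 0.15 (adjusted p = 0.00228), or 1.58-fold, with 1 spleen inside the untreated range, and it was kept without any single spleen. The step from 7 to 9 days, which is also a step between runs, was 0.96 (adjusted p = 0.000535), and these spleens did not overlap. Il6 itself was higher at 3 h by 3.31 ± 0.29 (adjusted p = 1.08e-11), when Il6ra was not called.

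Il27ra, the IL-27 receptor, passed at no time, and its largest difference was -0.55 at 24 h (adjusted p = 0.11). Its untreated levels ranged from 1.55 to 1.89 with a median of 1.61, and the 24 h spleens gave 1.63, 0.78, 0.92 and 1.21. Il31ra had values on 31 of 42 arrays, was not tested at 14 days or after the control mixture, and was called in no comparison.

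**Figure D4:**
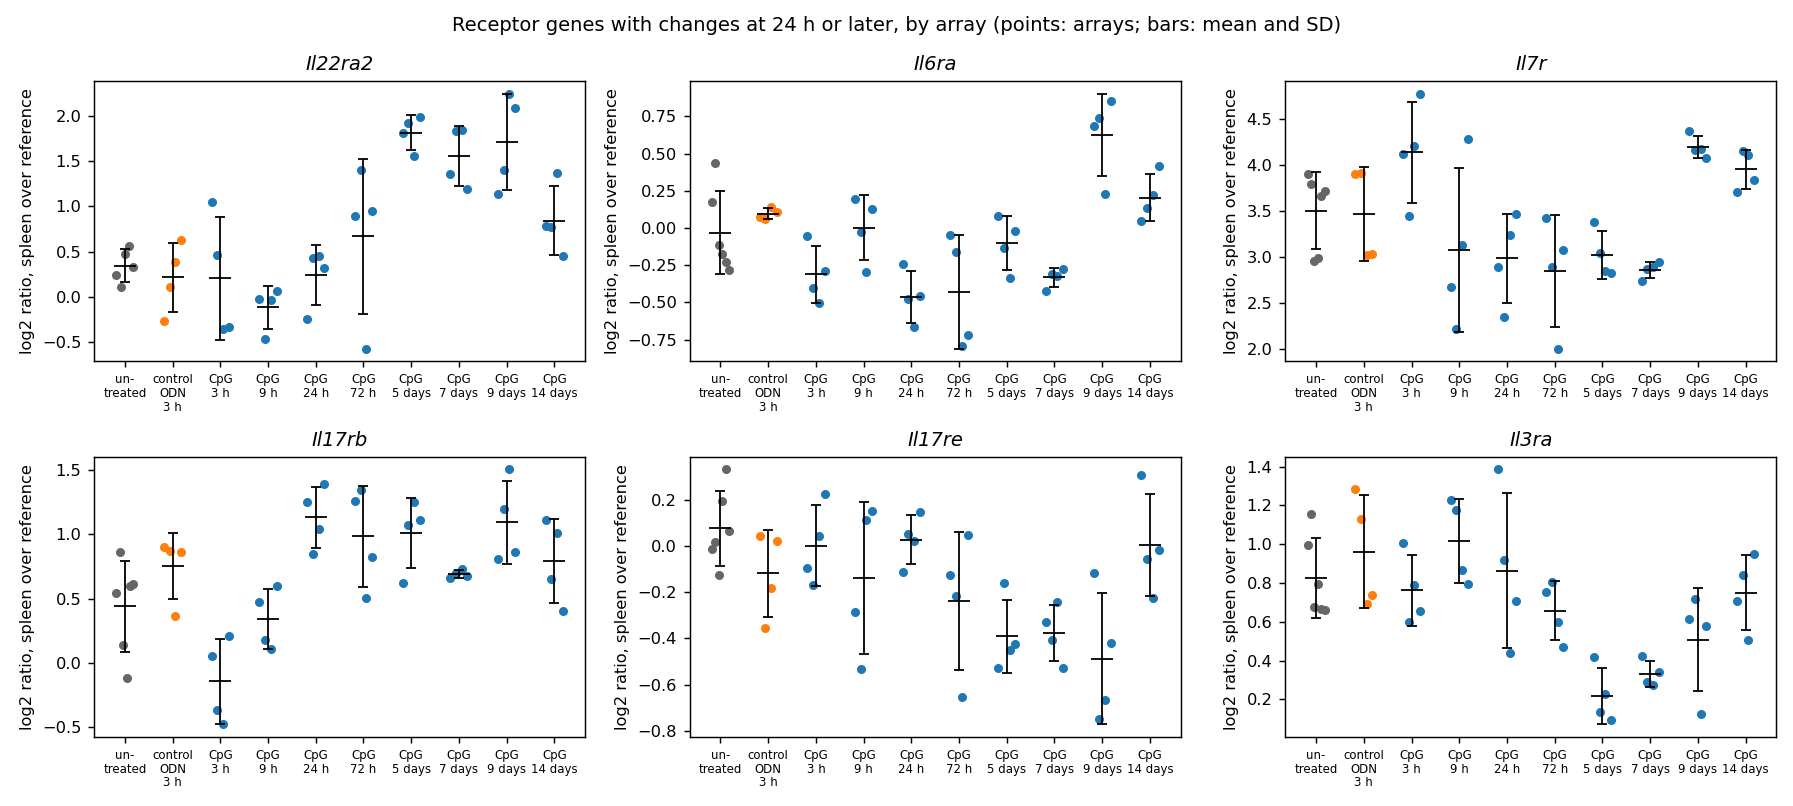
Log2 ratio of spleen over reference for Il22ra2, Il6ra, Il7r, Il17rb, Il17re and Il3ra in every spleen (points) with the group mean and SD (bars), for untreated, control and CpG groups in order of time. Il22ra2 lies above all untreated spleens at 5, 7 and 9 days, Il3ra below them at 5 and 7 days, and Il6ra and Il7r step up between 7 and 9 days.

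The IL-10 family held the largest late rise. Il22ra2, the secreted decoy for IL-22, had values in 5 of the 6 untreated spleens, at 0.11 to 0.57 with a median of 0.33. The 5 day spleens gave 1.81, 1.91, 1.55 and 1.99, the 7 day spleens 1.35, 1.83, 1.84 and 1.19, and the 9 day spleens 1.13, 1.40, 2.24 and 2.08. All 12 lay above the untreated spleens. The differences were 1.47 ± 0.29 (adjusted p = 0.000178), 1.21 (adjusted p = 0.00306) and 1.37 (adjusted p = 0.00127), or 2.77-, 2.31- and 2.58-fold, and each was kept without any single spleen.

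At 72 h Il22ra2 was uneven, with 0.90, 1.40, -0.57 and 0.94, and the step from 72 h to 5 days was 1.15 (adjusted p = 0.03). That step was lost without the 72 h replicate 3 or the 5 day replicate 1, 2 or 4, with differences of 0.73 to 1.15 and adjusted p of 0.0576 to 0.158. Its neighbour on chromosome 10, Il20ra, a chain of the IL-20 receptor, did not share the rise. Il20ra was lower at 72 h by -0.42 (adjusted p = 0.0426), a call lost without untreated replicate 1, 3, 4, 5 or 6 or the 72 h replicate 1, 2 or 3, with differences of -0.46 to -0.35 and adjusted p of 0.0559 to 0.147. Il22ra1, the membrane receptor for IL-22, was lower at 5 days by -0.58 (adjusted p = 0.0292), and this was lost without untreated replicate 2 or the 5 day replicate 2, 3 or 4, with differences of -0.58 to -0.41 and adjusted p of 0.0534 to 0.15.

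Il10ra, the IL-10 binding chain, fell at 7 days. Untreated levels ranged from 2.84 to 3.71 with a median of 3.30, and the 7 day spleens gave 2.50, 2.44, 2.64 and 2.19, all lower. The difference was -0.87 ± 0.27 (adjusted p = 0.0214), or 1.83-fold lower, and it was lost without untreated replicate 1 or the 7 day replicate 4, with differences of -0.80 and -0.79 and adjusted p of 0.0512 and 0.0782. Il10rb, the chain shared by the receptors for IL-10, IL-22 and interferon lambda, was not called against untreated spleens, with differences of -0.53 to 0.13. Il10 was higher at 3 h by 1.64 (adjusted p = 6.3e-08).

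Neither IL-13 receptor was called. Il13ra1, which pairs with Il4ra, had differences from -0.36 to 0.53; it gave -0.13, 0.34, 0.89 and 0.42 at 3 h against -0.45 to 0.21 (median -0.14) untreated. Il13ra2, the decoy, ran from -0.36 to 0.58 with a lowest adjusted p of 0.206.

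In the IL-17 class Il17rb changed direction with time. Il17rb binds IL-25, and its untreated levels ranged from -0.11 to 0.86 with a median of 0.57. The 3 h spleens gave 0.06, -0.36, -0.48 and 0.21, the 9 h spleens 0.48, 0.18, 0.11 and 0.60, and the 24 h spleens 1.25, 0.85, 1.04 and 1.39. At 24 h 3 of the 4 lay above the highest untreated spleen. The difference at 24 h was 0.69 ± 0.19 (adjusted p = 0.0122), and the step from 9 to 24 h was 0.79 (adjusted p = 0.0121), without overlap. With run as a block the 24 h difference was 0.26 (adjusted p = 0.852) and the step 0.75 (adjusted p = 0.0323).

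Other Il17rb calls depended on single spleens. The lower level at 3 h (-0.58, adjusted p = 0.0339) was lost without untreated replicate 1, 2, 5 or 6 or the 3 h replicate 2 or 3, with differences of -0.56 to -0.47 and adjusted p of 0.0609 to 0.169, and with run as a block (-0.99, adjusted p = 0.146). At 72 h the difference was 0.54 (adjusted p = 0.0437), lost without untreated replicate 3 or 4 or the 72 h replicate 1 or 2 (0.42 to 0.48, adjusted p 0.0916 to 0.186). At 5 days it was 0.57 (adjusted p = 0.0179), lost without untreated replicate 4 or the 5 day replicate 3 (0.46 and 0.50, adjusted p 0.0574 and 0.0686). At 9 days it was 0.65 (adjusted p = 0.0162), lost without the 9 day replicate 3 (0.52, adjusted p = 0.0974).

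Il17re, a chain of the IL-17C receptor, was lower at 5, 7 and 9 days. Untreated levels ranged from -0.13 to 0.33 with a median of 0.04, and the 5 day spleens gave -0.53, -0.16, -0.45 and -0.43. The differences were -0.47 (adjusted p = 0.0113) at 5 days, -0.45 (adjusted p = 0.0249) at 7 days and -0.57 (adjusted p = 0.00644) at 9 days. Those at 5 and 9 days were kept without any single spleen. The one at 7 days was lost without untreated replicate 5 or the 7 day replicate 2 or 4, with differences of -0.44 to -0.40 and adjusted p of 0.0605 to 0.0937.

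Il17ra, the chain shared by the IL-17 receptors, was lower at 7 days by -0.41 (adjusted p = 0.0228). Its 7 day spleens gave 0.42, 0.34, 0.62 and 0.36 against 0.62 to 1.09 (median 0.84), and the call was lost without untreated replicate 5 or the 7 day replicate 2 or 4, with differences of -0.39 to -0.36 and adjusted p of 0.0594 to 0.0726. Il17rd, a modulator of IL-17 and growth factor signals, was lower at 5 days by -0.63 (adjusted p = 0.0409). Its 5 day spleens ranged from -0.57 to 1.11, and the call was lost without untreated replicate 3, 4 or 5 or the 5 day replicate 1 or 2, with differences of -0.63 to -0.32 and adjusted p of 0.0558 to 0.312. Il17rc, the next gene after Il17re on chromosome 6 and the IL-17A co-receptor, was called at no time in the fit without blocks. With run as a block its differences were 1.98 at 3 h (adjusted p = 0.00352) and 2.25 at 24 h (adjusted p = 0.0268), against 0.58 and 0.20 without the block. Its average joins 2 features whose means were -1.91 and -0.23, and the higher of them had no value in untreated replicate 2, the 9 h replicate 1 and the 24 h replicate 1. Untreated replicate 2, at -2.60 the lowest untreated value, is the only untreated spleen in a run with 3 h spleens.

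CpG at 3 h was also compared with the control mixture at 3 h, 2 oligodeoxynucleotide mixtures given at the same dose and time. Of 31 members 9 were called, with 6 higher and 3 lower, against 20.7% of all genes (9.23% higher and 11.5% lower). In the IL-1 family 4 of 6 were higher. Il1r1 was higher by 0.91 ± 0.17 (adjusted p = 0.00017) and Il1rap by 0.55 ± 0.11 (adjusted p = 0.000374), both without overlap. In all 10 members did not overlap between these groups, against 20% of all genes. The 2 groups lie in separate runs, so run and treatment cannot be told apart.

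Beside these, Il15ra and Il21r, the called members were Il10rb and Il17rb, lower after CpG, and Il18rap and Il12rb1, higher after CpG. Il10rb was lower after CpG, at 0.94, 0.55, 0.86 and 0.86 against 2.00, 1.68, 1.83 and 1.48 after the control mixture, a difference of -0.95 ± 0.21 (adjusted p = 0.00128), or 1.93-fold. The mean of Il10rb was 1.33 in untreated spleens, 0.80 after CpG and 1.75 after the control mixture. Il17rb was lower by -0.89 ± 0.21 (adjusted p = 0.00167), with control values of 0.90, 0.87, 0.37 and 0.86 above all CpG values. Il18rap was higher by 0.69 (adjusted p = 0.0182), and here the control spleens, at -1.22, -1.55, -0.999 and -1.30, gave 3 of 4 values below the untreated range. The Il18rap call was lost without the CpG replicate 3 or the control replicate 2 (0.64 and 0.59, adjusted p 0.0542 and 0.0653).

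Il12rb1 was higher after CpG than after the control mixture by 0.47 (adjusted p = 0.0338), and this was lost without the CpG replicate 1, 2 or 4 or the control replicate 3, with differences of 0.30 to 0.49 and adjusted p of 0.0501 to 0.219. Control replicate 3, at -0.64, lay apart from the other 3. Neutrophil markers were not higher after CpG than after the control mixture, with 2 of 14 higher and 3 lower.

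**Figure D5:**
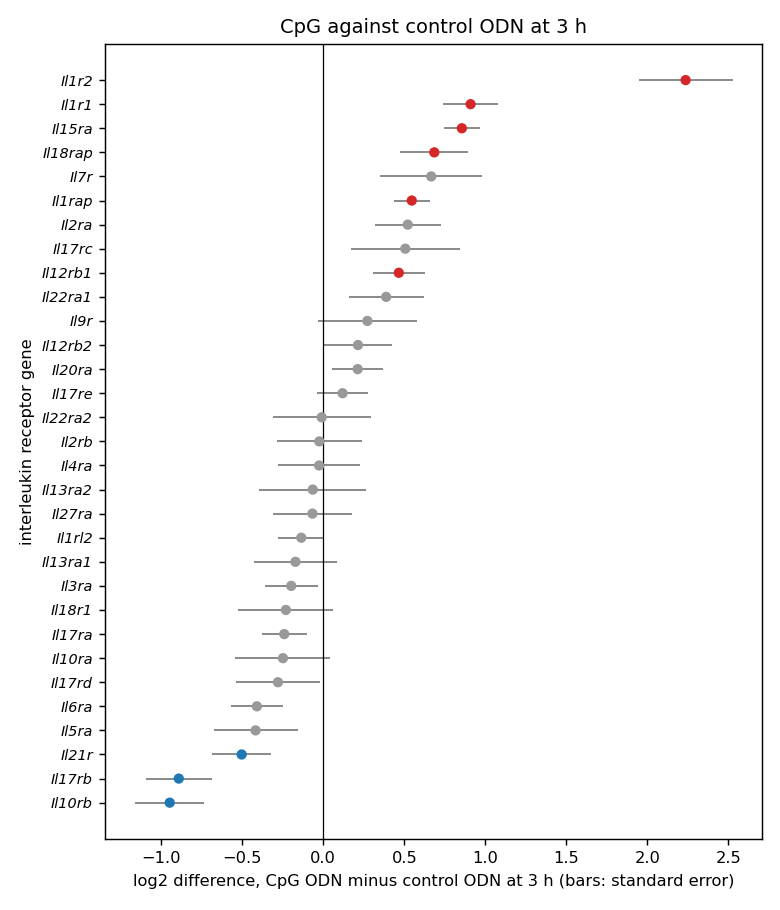
Log2 difference between CpG and control mixture at 3 h for 31 interleukin receptor genes in order of size, with bars for the SE, red for called higher, blue for called lower and grey for not called. Il1r2 at 2.24 lies farthest from 0, and Il10rb at -0.95 is the lowest.

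The 72 h, 7 day and 14 day spleens share 1 run of database numbers and so can be compared within it. A block for run cannot change a difference within 1 run, only the estimate of its spread, so it is no check on run here. Between 72 h and 14 days 8 of 31 members were called, with 4 higher and 4 lower at 72 h, against 29.1% of all genes (15.5% higher and 13.6% lower). Il18rap was higher at 72 h by 1.12 ± 0.21 (adjusted p = 0.000179) and Il15ra by 0.54 (adjusted p = 0.000523), whereas Il7r was lower by -1.10 (adjusted p = 0.00789) and Il6ra by -0.63 (adjusted p = 0.00322). The Il7r difference was lost without the 72 h replicate 3 (-0.82, adjusted p = 0.0583). Il12rb1, Il20ra, Il2rb and Il22ra1 were called too, by 0.42, -0.48, 0.79 and -0.63, and none of these 4 calls held without every spleen. Il12rb1 was lost without the 72 h replicate 1, 2 or 3 or the 14 day replicate 1, 3 or 4 (0.30 to 0.44, adjusted p 0.0627 to 0.181). With the spread from the fit with run as a block, Il12rb1 missed the threshold at the same difference of 0.42 (adjusted p = 0.0513). With that spread Il21r was added (-0.43, adjusted p = 0.0495). Il20ra was lost without the 72 h replicate 1 or 2 or the 14 day replicate 2 or 3 (-0.44 to -0.41, adjusted p 0.06 to 0.077). Il2rb was lost without the 72 h replicate 1 or 2 or the 14 day replicate 1 (0.53 to 0.71, adjusted p 0.0632 to 0.134). Il22ra1 was lost without the 72 h replicate 2 or 3 or the 14 day replicate 1 or 4 (-0.60 to -0.51, adjusted p 0.0591 to 0.101).

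Between 7 and 14 days 7 of 31 were called, all lower at 7 days, against 21.5% of all genes (10.8% lower). Il7r was lower by -1.09 (adjusted p = 0.0116), Il1r2 by -1.01 (adjusted p = 0.0118), Il21r by -0.87 (adjusted p = 0.000901) and Il6ra by -0.54 (adjusted p = 0.0151). Il6ra was lost without the 14 day replicate 4 (-0.47, adjusted p = 0.0609). With the spread from the fit with run as a block all 7 were kept and Il3ra was added (-0.42, adjusted p = 0.0369). Il10ra, Il17ra and Il18r1 were called as well, with differences of -0.81, -0.38 and -0.83. Il10ra was lost without any one 7 day replicate or the 14 day replicate 2, 3 or 4 (-0.88 to -0.68, adjusted p 0.0503 to 0.138), and Il18r1 without the same spleens (-0.88 to -0.65, adjusted p 0.053 to 0.148). Il17ra was lost without the 7 day replicate 1, 2 or 4 or the 14 day replicate 1, 2 or 3 (-0.41 to -0.29, adjusted p 0.0547 to 0.202).

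Steps between neighbouring times were called for few members. From 24 to 72 h no member passed, against 5.5% of all genes (3.6% higher and 1.9% lower) by limma, and 4 had an unadjusted p under the same limit. From 5 to 7 days none passed, against 3.22% of all genes, and 5 had such an unadjusted p. From 9 to 24 h 3 of 32 passed, Il1r2, which fell, and Il17rb and Il17rd, which rose (6.39% of all genes higher and 3.31% lower), and the block for run kept these and added Il6ra (-0.54, adjusted p = 0.0342). From 7 to 9 days 4 of 32 passed, Il7r, Il6ra, Il21r and Il10ra, all higher at 9 days, against 4.93% of all genes (3.03% higher). From 9 to 14 days 2 of 31 passed, Il15ra (-0.37, adjusted p = 0.0332) and Il17re (0.49, adjusted p = 0.0401), against 9.68% of all genes. The Il15ra step was lost without the 9 day replicate 1, 2 or 3 or the 14 day replicate 3 or 4 (-0.37 to -0.32, adjusted p 0.0688 to 0.0934). The Il17re step was lost without the 9 day replicate 2, 3 or 4 or the 14 day replicate 1, 2 or 4 (0.39 to 0.51, adjusted p 0.0689 to 0.129).

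At 5 and 7 days, when most called receptors were lower, T and B cell markers were lower too. Of 17 T cell genes 12 were lower and 1 higher at 5 days and 8 were lower at 7 days, and their mean level ranged from 0.55 to 0.82 at 5 days. Of 12 B cell genes 8 were lower at 5 days and 5 at 7 days, with a mean level of 1.83 to 2.04 at 5 days against 2.42 to 2.88 untreated. Among all genes 13.4% were lower at 5 days and 6.89% at 7 days. The part of T and B cells in the lower receptor levels was not tested. No gene of these lists is a member of the receptor set.

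Genes that work with the receptors were counted in 3 lists. Of all genes 7.7% were higher and 3.93% lower at 3 h, and 8.4% were higher and 5.12% lower at 9 days. Of the 30 interleukin ligands tested at 3 h 10 were higher and 1 was lower, and at 9 days 6 of 29 were higher and 3 lower. Of the 10 partner receptor chains 5 were higher at 3 h, led by Osmr, the oncostatin M receptor (1.96 ± 0.16, adjusted p = 1.38e-12), Ifnlr1, which pairs with Il10rb (0.97, adjusted p = 5.74e-05), and Csf2rb2, which pairs with Il3ra (0.86, adjusted p = 0.00111). Of the 24 signalling genes 12 were higher at 3 h and none was lower, and Socs3 (3.32 ± 0.27, adjusted p = 2.4e-12), Stat2 (2.03 ± 0.15, adjusted p = 1.08e-13) and Socs1 (1.99 ± 0.18, adjusted p = 4.6e-11) had the largest differences. Socs1 and Socs3 are feedback inhibitors of the Jak kinases that interleukin receptors use.

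At 5 days 1 of the 10 partner chains was higher and 3 were lower, where 30.9% of all genes were called (17.5% higher and 13.4% lower), and among the lower ones was Il6st, the gp130 chain itself (-0.62 ± 0.13, adjusted p = 0.000291). Of the 24 signalling genes 5 were higher and 3 lower at 5 days. The kinase Jak1 was among the lower ones, by -0.66 (adjusted p = 0.000225). After the control mixture no ligand of 28 was called, 1 of 10 partner chains was higher, again Osmr (0.79, adjusted p = 0.00833), and 4 of 24 signalling genes were higher, led by Myd88 (1.01 ± 0.19, adjusted p = 0.00724). Of all genes 2.45% were higher there. Without control replicate 1 no gene of any list was called after the control mixture. Without control replicate 3 only 4 of all genes were called.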

How the data were processed

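Spleen RNA and reference RNA were hybridised together to 42 two-colour arrays. The values are log2 ratios as deposited by the authors, normalized before deposit, and the array medians lie between -0.014 and 0.019. The log base, the direction (spleen over reference) and the normalization method are stated in no label; base and direction were inferred from the values and from the dyes in the labels, and the values lie between -6.859 and 9.784. No columns were left unused, and no pair of arrays was identical. 

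Features were named through the platform annotation: 23485 of 30601 have 1 symbol, 179 several and 6937 none. Features of 1 symbol were averaged. A model of group means over all 42 arrays was fitted with limma 3.58.1 in R 4.3.3, with empirical Bayes moderation, for genes with 3 or more arrays in each group compared, and p-values were adjusted by Benjamini-Hochberg over all genes of a comparison. Python 3.11.15 and matplotlib 3.10.9 were used for tables and figures. The fit was tested on simulated data. Members given by array are up to 16 with the largest called differences and a fixed panel; genes outside the set are at most 3 called genes per pathway list and comparison, and the ligands of those members. The members and lists were chosen with earlier results of these data known. Runs end where consecutive database numbers lie more than 12 apart; they are no stated batch. Promoters were taken from RefSeq (GRCm38.p6) with 1 chromosome left out. Shares of all promoters refer to the 32851 promoters searched. Replicates share only numbers and did not pair: 180 same-number pairs had a median correlation of 0.026 of deviations from group means. Alternatives changed the normalization, filter, averaging of features, arrays in the fit, array weights, spread, blocks and single replicates. Precision is limited by 4 to 6 arrays per group.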

Additional observations from a re-analysis of the deposited data

Results flagged for a closer look

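In 256 groups of member values, 14 held a spleen far from the others of its group by Dixon's test, where chance gives about 12.8, or 1 in 20. In Il12rb1 these were untreated replicate 3, at -0.098 against a median of 0.02 for the others, and control replicate 3, at -0.643 against -0.004. In Il13ra1 it was the 14 day replicate 4 (0.012 against -0.262). In Il15ra it was the 72 h replicate 2 (0.716 against 1.04). In Il17ra it was the 24 h replicate 4 (0.33 against 0.672) and the 5 day replicate 4 (1.008 against 0.541). In Il17rb it was control replicate 3 (0.366 against 0.869). In Il1r1 it was untreated replicate 1 (-0.159 against -0.487) and the 72 h replicate 4 (-0.988 against -0.56). In Il22ra1 it was the 9 day replicate 1 (0.323 against -0.284). In Il4ra it was untreated replicate 4 (1.045 against 0.634). The 3 h replicate 2 was low in Il2ra (0.938 against 1.352), Il2rb (1.918 against 2.799) and Il4ra (1.101 against 1.349).

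In all, 13 steps between neighbouring CpG times passed the limma test, which tests the difference between the effects at both times. From 3 to 9 h Il1r1 changed by -1.224. From 9 to 24 h Il17rb changed by 0.79, Il17rd by 0.819 and Il1r2 by -2.309. The Il17rd step was lost without the 9 h replicate 1, 3 or 4 or the 24 h replicate 1, 2 or 3, with differences of 0.658 to 0.854 and adjusted p of 0.0532 to 0.191. In the steps from 72 h on, run and time cannot be told apart. From 72 h to 5 days Il18r1 changed by -1.267, Il18rap by -0.805 and Il22ra2 by 1.146. From 7 to 9 days Il10ra changed by 0.952, Il21r by 0.928, Il6ra by 0.959 and Il7r by 1.334. The Il10ra step was lost without any 7 day replicate or the 9 day replicate 1, 2 or 4, with differences of 0.771 to 1.018 and adjusted p of 0.0732 to 0.185. From 9 to 14 days Il15ra changed by -0.369 and Il17re by 0.489.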

How the results depend on the processing

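No called difference of a member changed its sign under any alternative run. With array weights the members called were 10 at 3 h (5 in the report), 6 at 9 h (2), 11 at 72 h (5), 3 at 14 days (1), 4 after the control mixture (1), 2 from 3 to 9 h (1), 3 from 24 to 72 h (0), 6 from 72 h to 5 days (3), 2 from 5 to 7 days (0), 7 from 7 to 9 days (4) and 11 between 7 and 14 days (7). With features tested singly there were 8 at 3 h, 4 at 9 h, 2 at 14 days and 2 from 3 to 9 h. With quantile normalization there were 5 at 9 h, 8 at 24 h, 0 at 14 days, 1 from 5 to 7 days and 1 from 9 to 14 days. With only the arrays of the groups compared there were 0 at 14 days, 0 after the control mixture, 0 from 3 to 9 h, 1 from 9 to 24 h, 0 from 72 h to 5 days, 2 from 5 to 7 days, 7 from 7 to 9 days, 1 from 9 to 14 days and 5 between 72 h and 14 days. With run as a fixed block there were 3 at 3 h, of which 2 were among the 5, and 1 at 24 h, Il17rc, with all 4 calls of the report lost, and with run as a random block 2 at 72 h and 1 from 9 to 14 days. At 14 days there were 0 over genes or features present on every array (the second chosen after seeing the data) and 2 with the median over features. From 9 to 14 days there was 1 with the median over features and 1 with a robust and trended spread.

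Leaving out 1 replicate at a time gave 4 to 6 members at 3 h, 2 to 3 at 9 h, 3 to 6 at 24 h, 2 to 6 at 72 h, 7 to 10 at 5 days, 5 to 9 at 7 days, 6 to 9 at 9 days, 0 to 1 at 14 days, 0 to 4 after the control mixture and 7 to 9 for CpG against control. The steps gave 1 to 2 from 3 to 9 h, 2 to 3 from 9 to 24 h, 0 to 0 from 24 to 72 h, 0 to 3 from 72 h to 5 days, 0 to 0 from 5 to 7 days, 3 to 4 from 7 to 9 days and 0 to 3 from 9 to 14 days. The comparisons with 14 days gave 5 to 8 for 72 h and 4 to 7 for 7 days, and the F test 18 to 24.

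With the replicate number as a block, which the pairing check does not support as a design, the members called were 5 at 3 h, 3 at 9 h, 6 at 24 h, 4 at 72 h, 9 at 5 days, 8 at 7 days, 8 at 9 days, 1 at 14 days, 1 after the control mixture and 11 for CpG against control. Same-number arrays had correlations of -0.373 to 0.52. Of 83 calls of single members, 11 were lost under that block.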
